A study of Mus musculus with 27 samples.

Results

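The contacts described here join a core of 850 kb on mouse chromosome 4 (chr4:107110001-107960000) with the long flank to its left (chr4:102820001-107110000), in testis. The core holds a boundary between topologically associating domains (TADs) that was deleted with CRISPR-Cas9. Members were chosen by position alone: every pair of a 10 kb core bin and a 50 kb flank bin, leaving out the 3 core bins that the deletion touches (chr4:107710001-107740000, called the span). That gives 82 core bins, 60 of them left of the span and 22 right of it, and 86 flank bins counted from the core edge, the outermost of which is 40 kb long. There are 7052 such pairs, 5160 on the left side of the core and 1892 on the right, and the same core makes 4018 pairs of this kind with the 2420 kb to its right. The stretch that holds the core and both flanks has 756 bins of 10 kb.

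The series has 27 samples of mouse testis, of which 6 are capture Hi-C libraries and are used here. Capture Hi-C joins neighbouring DNA fragments inside the nucleus by ligation and enriches the products of chosen regions with probes, so each count is a ligation between 2 bins. The libraries are 3 with the genotype label Wild-type and 3 labelled B396.BOS_hom_KO, the homozygous deletion. The labels give no strain or age, and nothing shared by both groups beyond the tissue and the protocol. They do not say whether libraries of one genotype came from separate animals, so p-values measure only the spread between these libraries, which may be technical. Whole testis mixes germ cells of every stage with somatic cells, so each contact count is a mean over cell types.

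A TAD is a domain within which contact is more frequent than across its borders. Their edges are often held by CTCF, which halts the loop-extruding cohesin complex, and beyond them contact falls with distance and depends on whether 2 stretches share a chromatin type, gene-dense with gene-dense and gene-poor with gene-poor. Most nuclei of the testis belong to germ cells, whose chromosomes are reorganised through meiosis and then compacted in spermatids.

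The core holds Tceanc2, Tmem59, Lrrc42, Hspb11, Dio1, Yipf1 and Ndc1 at its left end, then Glis1, a zinc finger transcription factor gene, and Dmrtb1, a DM domain factor that acts when spermatogonia enter meiosis, beside the span. To the right of the span lie Lrp8, a receptor for reelin, and then Magoh, Czib and Cpt2. The flank holds 30 protein-coding genes. From the core outward these form a group of 4 (Ssbp3 to Cdcp2, 200 kb), a gene-dense group of 12 (Usp24 to Acot11, 500 kb), a stretch of 1070 kb with no coding gene and 7 long non-coding RNA genes, a group of 5 (C8b to Plpp3, 480 kb), the single gene Dab1 (segment of 1140 kb), and an outer group of 8 (Sgip1 to Oma1, 560 kb).

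The 5 flank bins with the highest contact with the core for their distance in wild type, described below, contain 5 RefSeq promoters of the table used here (GRCm38.p6; 250 bases before to 50 after a start). They are shown so that the genes at these peaks can be identified; a 50 kb bin cannot tell which part of it makes the contacts. Capitals mark CG dinucleotides, which are 16 in the Lexm promoter (chr4:106617189-106617488, minus strand) and 13 in that of Ttc22 (chr4:106622199-106622498, plus strand). Acot11 has 9 at the start that lies inside the gene, here called inner (chr4:106799782-106800081, minus strand). It has 20 at the start at the edge of the gene, here called outer although it is nearer the core (chr4:106804958-106805257, minus strand). The non-coding Gm31125 has 32 (chr4:106840112-106840411, minus strand). The median over the 32851 promoters of the table was 7, and 9.52% of them held 32 or more. The GC box GGGCGG, searched on both strands, was found 3 times in the inner Acot11 promoter, 1 time in that of Gm31125 and not in the other 3 windows, and 35.7% of all promoters of this length held it.
Lexm promoter: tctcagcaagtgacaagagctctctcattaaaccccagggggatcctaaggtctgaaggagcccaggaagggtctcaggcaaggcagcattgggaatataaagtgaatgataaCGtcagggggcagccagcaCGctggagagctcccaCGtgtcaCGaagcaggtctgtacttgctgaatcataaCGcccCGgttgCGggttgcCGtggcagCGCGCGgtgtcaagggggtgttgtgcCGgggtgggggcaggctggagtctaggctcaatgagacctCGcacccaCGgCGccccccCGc
Ttc22 promoter: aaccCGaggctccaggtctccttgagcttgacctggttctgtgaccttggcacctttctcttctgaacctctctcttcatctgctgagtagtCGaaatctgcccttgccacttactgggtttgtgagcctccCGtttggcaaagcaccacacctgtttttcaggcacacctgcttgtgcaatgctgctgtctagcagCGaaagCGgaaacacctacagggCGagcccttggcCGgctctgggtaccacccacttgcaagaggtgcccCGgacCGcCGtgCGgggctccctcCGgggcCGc
Acot11 inner promoter: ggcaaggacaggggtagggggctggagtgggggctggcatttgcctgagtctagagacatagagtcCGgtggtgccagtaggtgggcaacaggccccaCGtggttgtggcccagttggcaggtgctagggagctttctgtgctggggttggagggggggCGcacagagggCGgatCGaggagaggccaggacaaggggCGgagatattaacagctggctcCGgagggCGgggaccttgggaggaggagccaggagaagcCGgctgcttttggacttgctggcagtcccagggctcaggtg
Acot11 outer promoter: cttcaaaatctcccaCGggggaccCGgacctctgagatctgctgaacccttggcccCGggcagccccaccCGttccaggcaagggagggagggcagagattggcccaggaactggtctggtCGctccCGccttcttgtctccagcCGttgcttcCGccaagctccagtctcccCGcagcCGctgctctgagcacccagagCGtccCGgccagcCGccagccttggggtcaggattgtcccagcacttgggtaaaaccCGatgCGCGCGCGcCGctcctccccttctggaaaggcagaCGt
Gm31125 promoter: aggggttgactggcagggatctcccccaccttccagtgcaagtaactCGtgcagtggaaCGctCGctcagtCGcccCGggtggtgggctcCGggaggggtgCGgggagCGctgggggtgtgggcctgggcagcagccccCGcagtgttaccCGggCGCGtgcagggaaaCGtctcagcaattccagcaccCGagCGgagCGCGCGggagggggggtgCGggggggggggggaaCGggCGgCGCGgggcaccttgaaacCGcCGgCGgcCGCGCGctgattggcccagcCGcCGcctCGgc

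The deletion was visible in contacts with the flank itself. The second span bin (chr4:107720001-107730000) made 1248, 1762 and 1487 contacts with the flank where the boundary is intact, against 2, 2 and 4 in homozygotes. The third (chr4:107730001-107740000) made 2191, 3192 and 2720 against 8, 18 and 8, and the first (chr4:107710001-107720000) made 2134, 2898 and 2674 against 1351, 2095 and 1794. By coverage, all contacts of a span bin with the core and both flanks as a share of those of the 82 core bins, the first bin kept 73.5% of its wild-type level, and over the 3 bins 22.6 kb were missing, so in homozygotes the right side of the core lies closer to the flank by about that length. The libraries held 5669898 to 7794641 contacts, of which 160042 to 280012 joined the core with the flank. The flank was scarcely enriched: per 10 kb bin and library, its bins made 8.09 to 11.1 contacts with other chromosomes, bins of the rest of chromosome 4 made 5.26 to 6.72, and core bins 2752 to 4518. Contacts between flank bins were therefore too sparse to use, and each value is seen from the core. The pairs had a median of 19.8 contacts per library, and 33 of the 7052 had a mean under 5 and entered no pairwise test.

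To describe the flank, contacts were divided by the number expected at their distance, from each library's own decay of core contacts with both flanks and from each core bin's contacts with other chromosomes, and the log2 of this ratio is called the distance-corrected contact. In wild type the core made more contact than its distance predicts with the gene-dense group and less with the stretch that has no coding gene. The Usp24 to Acot11 segment (chr4:106310001-106810000) had distance-corrected contacts of 0.22, 0.32 and 0.25 in the 3 wild-type libraries, a mean of 0.26 ± 0.05 (SD, n = 3). The neighbouring stretch without a coding gene (chr4:105240001-106310000) had -0.33, -0.30 and -0.31, a mean of -0.31 ± 0.02 (SD, n = 3), or 0.806 times the expected level. Every library was thus above expectation in the first and below it in the second, although the second begins where the first ends.

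Within the gene-dense segment the highest bin of the whole flank (chr4:106610001-106660000, 450 kb from the core) held Lexm, Ttc22, Pars2, which charges mitochondrial tRNA with proline, and Ttc4. It made 5042, 8596 and 6585 contacts in the wild-type libraries, a distance-corrected contact of 0.50 ± 0.09 (SD, n = 3). The bin of Acot11, an acyl-CoA thioesterase gene, reached 0.44 ± 0.04. Bsnd, a chloride channel subunit gene, had 0.39 ± 0.19 over its own bins, and Tmem61 0.44 ± 0.12. Usp24, a deubiquitinase gene at the outer end of the group, was below expectation at -0.16 ± 0.06. The bin just inward of Acot11 (chr4:106810001-106860000) holds no coding gene and still had 0.42 ± 0.04, so a high level was not limited to bins with a coding gene.

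Next to the core, Ssbp3, a transcriptional cofactor gene, was near its expectation at -0.03 ± 0.03, and the first flank bin, with Mrpl37, Cyb5rl and Cdcp2, had 0.13 ± 0.06. Beyond the stretch without coding genes, contact was again above expectation at the complement genes C8b (0.19 ± 0.04) and C8a (0.17 ± 0.03), at Fyb2 (0.26 ± 0.01) and at Plpp3, a lipid phosphatase gene (0.10 ± 0.02). Prkaa2, which encodes a catalytic subunit of AMP-activated kinase, was at 0.01 ± 0.05 between them. Dab1, the adaptor of reelin signalling, was near its expectation as a whole (-0.03 ± 0.01), with 23 bins that hold Dab1 alone between -0.33 and 0.20. At the far end, about 3900 kb from the core, the bin of Mier1 and Slc35d1 (chr4:103160001-103210000) rose again to 0.42 ± 0.05 on 1320, 1721 and 1547 contacts. The 3 lowest bins of the flank were all in the stretch without coding genes, at -0.74 ± 0.04 (chr4:105710001-105760000), -0.71 ± 0.07 and -0.65 ± 0.04, and the outermost full bin, in Sgip1, was at -0.37 ± 0.03.

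Over the 86 bins, the 28 without a coding gene had a median wild-type distance-corrected contact of -0.28 and 4 of them were above 0. The 42 bins with 1 coding gene had a median of 0.0013, and the 16 with 2 or more had 0.25, with 13 above 0. All 86 bins had a median of -0.05. Flank bins were not scaled by their own contacts with other chromosomes. Those that made more of these contacts also tended to be higher (Spearman 0.43 over 86 bins of the same libraries, given as a description). The median of such contacts, summed over the 6 libraries, was 301 in bins with 2 or more coding genes and 256.5 in bins with none. Per 50 kb they were 372.9 in the Usp24 to Acot11 segment and 257.9 in the stretch without coding genes. The other segments had 594.75 (Ssbp3 to Cdcp2), 252.8 (C8b to Plpp3), 237.8 (Dab1) and 243.75 (Sgip1 to Oma1). The part of this in the result was not tested. The level of every segment also depended on the distance curve. Pairs with the shorter right flank do not reach the largest distances. There the curve rests on the left flank alone, so levels near 0 in the outer segments are partly built in. With the decay taken from the captured core of chromosome 2, the C8b to Plpp3 segment was at -0.03 ± 0.07 in place of 0.18 ± 0.01, and the stretch without coding genes at -0.51 ± 0.04. Dab1 was then at -0.17 ± 0.06 in place of -0.03 ± 0.01, and Sgip1 to Oma1 at 0.25 ± 0.04 in place of 0.09 ± 0.03. Nearer the core, Ssbp3 to Cdcp2 was at 0.16 ± 0.07 in place of 0.04 ± 0.04, and Usp24 to Acot11 at 0.38 ± 0.05 in place of 0.26 ± 0.05.

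**Figure D1:**
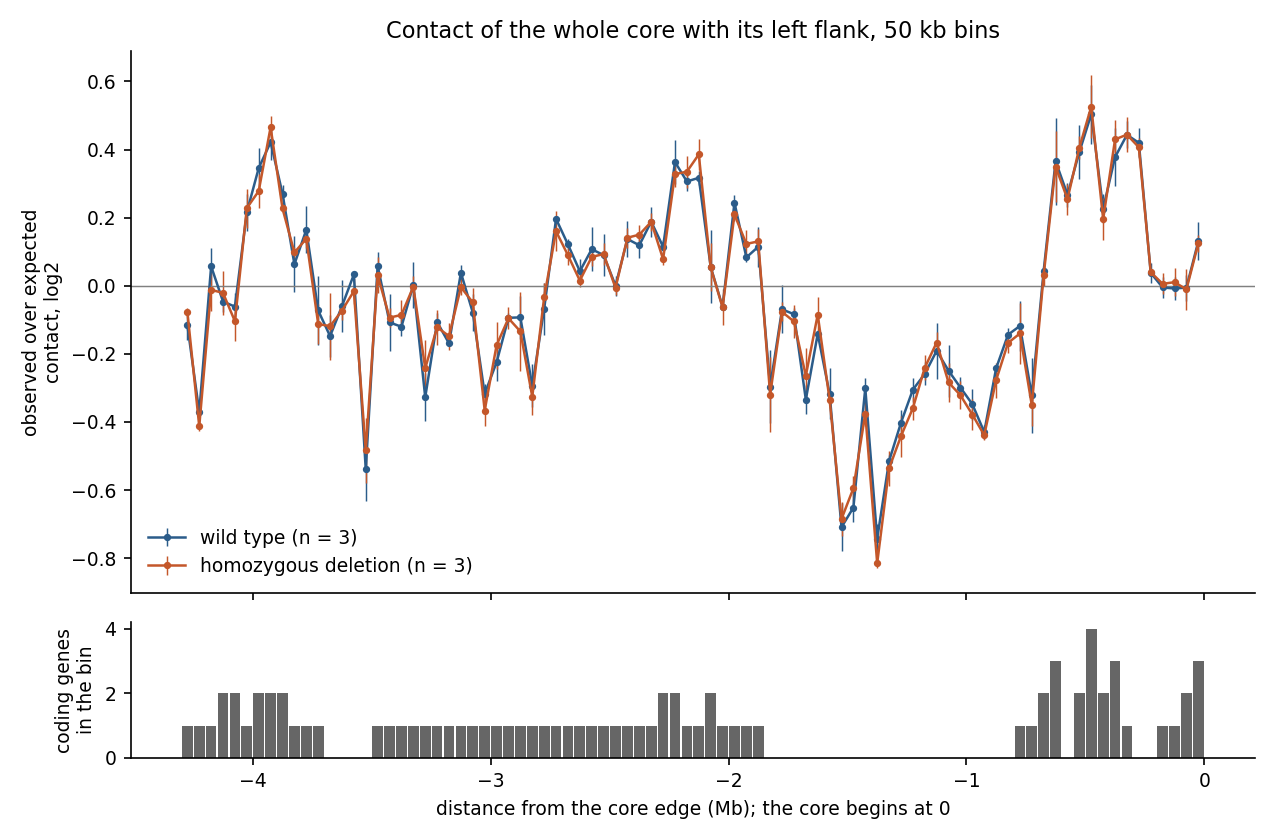
The upper panel plots distance-corrected contact of the whole core (log2, mean ± SD of 3 libraries per genotype) for 86 flank bins of 50 kb against distance from the core edge in Mb, and the lower panel the number of coding genes per bin. Wild-type and homozygous curves lie on each other, high at the gene-dense bins around 0.5 Mb (0.50 in wild type at the highest) and low around 1.4 Mb (-0.74 at the lowest).

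Homozygotes had nearly the same profile. Across the 86 bins the genotype means of distance-corrected contact had a Pearson correlation of 0.992, a description over bins that share libraries and distance curve. The Usp24 to Acot11 segment was at 0.23, 0.31 and 0.26 in the homozygous libraries (mean 0.27 ± 0.04, SD, n = 3) and the stretch without coding genes at -0.34, -0.31 and -0.32. For these and the other 4 segments the genotypes overlapped, and the difference between means was between -0.015 and 0.0041 (exact permutation p of 0.4 to 0.9 for each; 3 libraries against 3 cannot give less than 0.1). None of the 30 coding genes had genotypes that did not overlap (0%), and the largest difference in size was 0.066, at Fam151a. Of the 10 flank bins named for their level, 2 had genotypes that did not overlap (6.98% of the 86 bins and 8.15% of those of both flanks did not): the lowest bin went from -0.74 ± 0.04 to -0.81 ± 0.01, and the outermost full bin from -0.37 ± 0.03 to -0.41 ± 0.01.

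In a test on contact counts across the 135 bins of both flanks (edgeR quasi-likelihood test, Benjamini-Hochberg adjustment), no bin of either flank passed an adjusted p of 0.05 (0%). In the left flank 1 of 86 had an unadjusted p under 0.05, and DESeq2 called 0 with 0 unadjusted. The smallest p in each direction belonged to the outermost short bin, in Sgip1, with 630, 931 and 804 contacts against 667, 1048 and 894 (log2 change 0.11 ± 0.04 SE, adjusted p = 0.99), and to a bin of the stretch without coding genes (chr4:105660001-105710000), with 1469, 1972 and 1752 contacts against 1257, 2102 and 1744 (log2 change -0.07 ± 0.04 SE, adjusted p = 0.99). Neither passed, and all 86 log2 changes lay between -0.07 and 0.11. In simulated counts of this depth the test found 19 of 20 flank bins changed 1.2-fold and 4 of 20 changed 1.1-fold, so most changes of that smaller size would have been missed. Genotypes did not overlap in 6 of the 86 bins (6.98%), against 8.15% of the bins of both flanks.

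Within each genotype, the flank looked different from the 2 sides of the core. In wild type the 60 core bins left of the span and the 22 right of it gave profiles with a Pearson correlation of 0.79 to 0.81 in the 3 libraries, and in homozygotes of 0.75 to 0.81 (86 bins, description only). The right side made more distance-corrected contact with the Usp24 to Acot11 segment, 0.52, 0.67 and 0.56 in the wild-type libraries against 0.14, 0.22 and 0.17 for the left side. The same held in homozygotes, with 0.57, 0.65 and 0.60 against 0.13, 0.21 and 0.16. The stretch without coding genes was well below expectation only from the left side, at -0.39 ± 0.01 against -0.06 ± 0.03 from the right in wild type (SD, n = 3), and at -0.41 ± 0.02 against -0.07 ± 0.0046 in homozygotes. At the far Sgip1 to Oma1 segment the left side had 0.09 ± 0.03 and the right 0.08 ± 0.02 in wild type, and 0.08 ± 0.02 and 0.06 ± 0.0017 in homozygotes. The right side was lower in homozygotes there without overlap (exact permutation p = 0.1), the only one of the 6 segments where either side's value separated.

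Tested bin by bin with the distance expectation as offset and the library as block (edgeR quasi-likelihood test, Benjamini-Hochberg adjustment over the 86 bins), the right side took a larger share of its contacts than the left from 26 bins (30.2%) and a smaller share from 28 (32.6%) in wild type, 54 in all (62.8%). In homozygotes 26 bins were higher (30.2%) and 23 lower (26.7%), 49 in all (57.0%). Both genotypes called 45 bins, all in the same direction, which is 83.3% of the wild-type and 91.8% of the homozygous calls. Of the 30 bins within 1500 kb of the core, 22 were higher from the right side in wild type and 23 in homozygotes, and of the 56 bins beyond it, 26 and 23 were lower. The calls compare shares, so the higher and lower bins balance by construction.

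In wild type 11 of the 26 higher calls were in the stretch without coding genes, 9 in the Usp24 to Acot11 group and 4 in C8b to Plpp3, and in homozygotes 11, 10 and 3. The bin at the inner end of the stretch without coding genes (chr4:106260001-106310000) was at 0.37 ± 0.04 in wild type (adjusted p = 2.2e-05) and 0.33 in homozygotes. In the bin of Lexm, Ttc22, Pars2 and Ttc4 the right side exceeded the left by 0.21 ± 0.02 (log2, SE) in wild type (adjusted p = 8.89e-06) and by 0.28 ± 0.02 in homozygotes (adjusted p = 3.45e-05). Bins with Ttc4 and Mroh7 (0.26 and 0.25) and with Mroh7, Fam151a and Acot11 (0.24 and 0.23) were also called in both genotypes. Of the 28 lower calls in wild type, 10 were in Dab1, 9 in Sgip1 to Oma1, 2 in C8b to Plpp3, 5 between segments and 2 near the core, in Ssbp3 (-0.08 for each, adjusted p = 0.0075 and 0.0077). These 2 Ssbp3 bins were at -0.02 and -0.01 in homozygotes and were not called. The bin of Mier1 and Slc35d1 had a log2 difference of -0.27 ± 0.03 in wild type (adjusted p = 7.69e-05) and -0.25 ± 0.04 in homozygotes (adjusted p = 0.00115), that of Oma1, a mitochondrial protease gene, at -0.24 and -0.27, and the 2 Dab1 bins at chr4:103610001-103660000 and chr4:103660001-103710000 at -0.18 and -0.28 in wild type (homozygotes -0.36 and -0.21).

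These calls depended on the distance curve and on which left bins were taken. With the decay of chromosome 2, 16 bins were called in wild type and 13 in homozygotes, and the wild-type value was 0.024 at the bin of Ttc4 and Mroh7 (adjusted p = 0.57) and 0.044 at that of Mroh7, Fam151a and Acot11 (adjusted p = 0.20), so neither of these gene-dense calls held. DESeq2 called 26 and 23. Without wild-type replicate 1 or 2 the wild-type count was 29 or 25, and without homozygous replicate 1 the homozygous count was 31. When the 22 left bins next to the span stood for the left side, 36 bins were called in wild type, 29 of them also called with all 60 left bins, 26 of those in the same direction and 3 in the opposite one. The bin of Ttc4 and Mroh7 stayed higher there (0.35), while the Mier1 and Slc35d1 bin turned to 0.19 in wild type and 0.21 in homozygotes. Summed over the flank, the right side made 1.17 times the distance-corrected contact of the left side in wild type (log2 0.22, 0.25 and 0.22), but against the 22 nearest left bins the log2 ratio was -0.02 ± 0.02 (SD, n = 3), with libraries on both sides of 0. No jump in the total contact with the flank was thus measured between these 22 bins and the right side. Within this total, segments differed in both directions. In wild type the 22 left bins had 0.37 at Usp24 to Acot11 against 0.58 on the right. They had 0.26 at Dab1 against 0.04, 0.40 at C8b to Plpp3 against 0.34, and 0.01 at the stretch without coding genes against -0.06. Ssbp3 to Cdcp2 had 0.19 on both sides, and Sgip1 to Oma1 0.10 against 0.08.

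**Figure D2:**
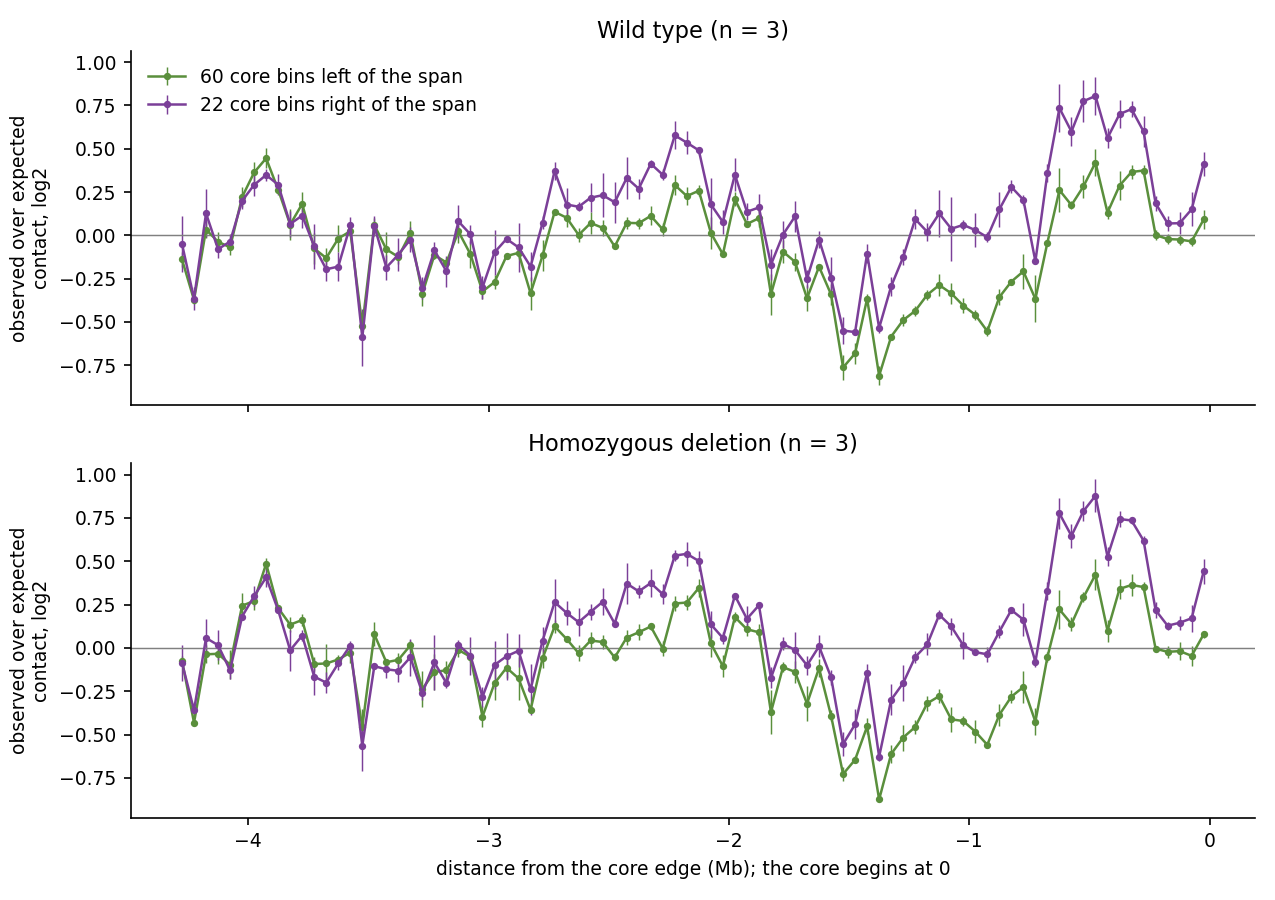
Distance-corrected contact (log2, mean ± SD, n = 3) of the 60 core bins left of the span and the 22 right of it with each 50 kb flank bin, against distance from the core edge in Mb, wild type above and homozygous deletion below. In both genotypes the right side runs above the left through the nearer part of the flank, for instance 0.58 against 0.17 at the Usp24 to Acot11 segment in wild type, and the curves cross in the outer part.

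Dividing the core into 8 blocks showed where the profile turned. Blocks 1 to 6 are 100 kb each from the left core edge to the span, and blocks 7 and 8 are 110 kb each right of it. The stretch without coding genes was avoided by blocks 1 to 3, which hold the gene-dense left end from Tceanc2 to Ndc1, with wild-type means of -0.64, -0.81 and -0.70. Block 4, at the start of Glis1, was at -0.28, block 5, within Glis1, at -0.01, block 6, with Dmrtb1, at 0.08, block 7, right of the span with Lrp8, at 0.09, and block 8, with Lrp8, Magoh, Czib and Cpt2, at -0.24. The SDs of these means were 0.0036 to 0.033 (n = 3), far below the steps between blocks 3, 4 and 5. The profile thus turned at 2 places away from the span, upward between block centres -350 and -150 kb from it and downward between blocks 7 and 8 on its right, while blocks 6 and 7, on either side of the span, differed by less than their spread.

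Dab1 was also low in blocks 1 to 3 and higher in blocks 5 to 7, with -0.24, -0.41 and -0.40 in blocks 1 to 3, 0.04 in block 4, 0.31, 0.24 and 0.21 in blocks 5 to 7 and -0.17 in block 8. The C8b to Plpp3 group ran from 0.03, -0.19 and -0.19 through 0.18 to 0.40, 0.45 and 0.49, and was 0.14 in block 8. The gene-dense Usp24 to Acot11 group differed from these: it was highest in blocks 6 to 8 (0.58, 0.65 and 0.50) and between -0.07 and 0.24 in blocks 1 to 5. The far Sgip1 to Oma1 group was nearly level, between 0.015 and 0.15 over all 8 blocks. At its distance the expected contact comes from the left flank alone, so a level near 0 is partly built in.

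The turn was also present in homozygotes. For the stretch without coding genes, blocks 5 to 7 exceeded blocks 1 to 3 by 0.77 ± 0.01 in wild type (1.70-fold) and by 0.73 ± 0.05 in homozygotes, and these overlapped (difference -0.04, exact permutation p = 0.4). For Dab1 the contrast was 0.60 ± 0.04 and 0.57 ± 0.07 (exact permutation p = 0.5). The contrast of blocks 5 and 6 with blocks 1 to 3 did not overlap at Usp24 to Acot11 (0.35 to 0.30) and at Ssbp3 to Cdcp2 (0.25 to 0.18; exact permutation p = 0.1 for each), lower in homozygotes at both. With the decay of chromosome 2 the contrast of blocks 5 to 7 was also lower without overlap at these 2 groups (0.27 to 0.22 and 0.43 to 0.39). Without scaling of core bins, the contrast of blocks 5 and 6 overlapped at both. It was 0.34 and 0.30 at Usp24 to Acot11 (exact permutation p = 0.7), and 0.27 and 0.21 at Ssbp3 to Cdcp2 (exact permutation p = 0.6). In the remaining segments the contrast of blocks 5 and 6 overlapped with scaling too. Block 7 alone, right of the span, exceeded blocks 1 to 3 by 0.80 ± 0.02 and 0.76 ± 0.05 at the stretch without coding genes. With the decay of chromosome 2 the contrast of blocks 5 to 7 was 0.64 in wild type and 0.61 in homozygotes, and without scaling of core bins 0.78 and 0.77. Among the 48 values of 8 blocks and 6 segments, genotypes did not overlap in 3 (6.25%), and the largest difference in size was 0.07. Of the 3, both blocks beside the span were lower in homozygotes at the stretch without coding genes, block 6 going from 0.08 to 0.03 and block 7 from 0.09 to 0.04, and block 4 was higher at C8b to Plpp3 (0.18 to 0.23). The blocks and segments were set after the profiles had been seen, so these are descriptions of where the profile turns.

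**Figure D3:**
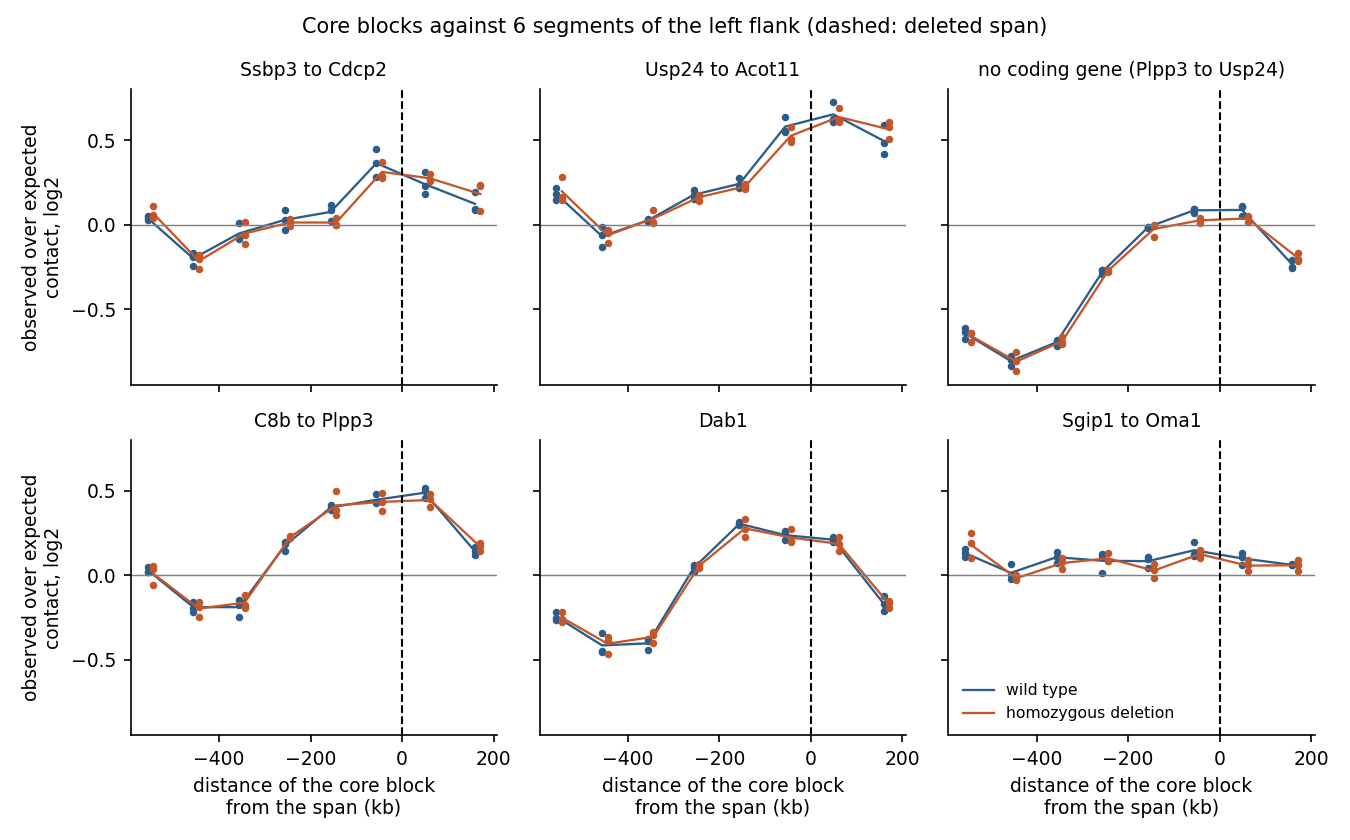
Distance-corrected contact (log2) of 8 core blocks with 6 flank segments, plotted against the distance of the block's centre from the span (kb; negative is left), with 1 point per library and lines through the genotype means. From left to right the stretch without coding genes goes from -0.64 in block 1 and -0.81 in block 2 to 0.08 in block 6, left of the span, in wild type, is at 0.09 right of it and falls to -0.24 in block 8, and the homozygous line has the same shape.

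The total contact of the core with the flank did not differ between genotypes beyond the spread. It took 14.1, 14.1 and 14.1% of all contacts of the core bins in wild type and 14.4, 14.0 and 14.4% in homozygotes, a difference of 0.107 percentage points (exact permutation p = 0.4, two-sided). The distribution between the sides moved slightly. Left of the span, a bin pair had on average 5.02, 7.62 and 6.25 contacts without the deletion and 4.72, 8.27 and 6.37 with it; right of it the counts per pair were 4.17, 6.49 and 5.22 without the deletion and 4.09, 7.10 and 5.53 with it. The log2 ratio of right to left per library, the side ratio, was -0.27, -0.23 and -0.26 in wild type. Homozygous libraries had -0.21, -0.22 and -0.20. All 3 homozygous libraries were above all 3 wild-type libraries, by 0.043 in the mean (p = 0.1, two-sided exact permutation test, which cannot go lower here), which is 0.839-fold against 0.865-fold.

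The deletion also shortens the distance between the right side and the flank. With the wild-type decay, moving the right side closer by the missing 22.6 kb predicts a gain of 0.017 in the side ratio. After that shift the difference was 0.026 and the genotypes overlapped (exact permutation p = 0.2). The ratio of contacts with other chromosomes, right over left, was itself 0.030 higher in homozygotes (-0.01 ± 0.01 against 0.02 ± 0.02; exact permutation p = 0.2). With each core bin scaled by these contacts and each pair by its distance, the side ratio was 0.23 ± 0.02 in wild type and 0.24 ± 0.00744 in homozygotes, a difference of 0.012 (exact permutation p = 0.4) that turned to -0.0045 when the missing length was also taken out.

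By distance from the core edge, the side ratio rose in homozygotes by 0.058 in the nearest 500 kb, where genotypes did not overlap (exact permutation p = 0.1, adjusted over 5 zones p = 0.25). Here the right side had 11746, 19659 and 14955 contacts without the deletion and 11786, 21994 and 16025 with it. The differences were 0.059 at 500 kb to 1 Mb, 0.030 at 1 to 2 Mb, 0.022 at 2 to 3 Mb and 0.045 beyond 3 Mb, all with overlapping genotypes (exact permutation p of 0.2 to 0.3). In each of the 5 zones the homozygous library was above the wild-type library of the same number in 3 of 3 pairs (exact sign-flip permutation p = 0.25, the smallest that 3 pairs allow). By segment, the side ratio did not overlap at Sgip1 to Oma1 (-0.23, -0.14 and -0.18 against -0.11, -0.06 and -0.10, a rise of 0.093), at Ssbp3 to Cdcp2 (a rise of 0.074) and at Usp24 to Acot11 (0.062; exact permutation p = 0.1 for each), and it overlapped at the other 3. These ratios are not corrected for distance or for contacts with other chromosomes. At Sgip1 to Oma1 the distance-corrected contact went from 0.08 to 0.06 on the right side and from 0.09 to 0.08 on the left. On the right side it went from 0.19 to 0.23 at Ssbp3 to Cdcp2 and from 0.58 to 0.61 at Usp24 to Acot11, with overlap. The missing length predicts 0.028 and 0.029 in the 2 nearest zones and 0.0048 in the farthest.

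**Figure D4:**
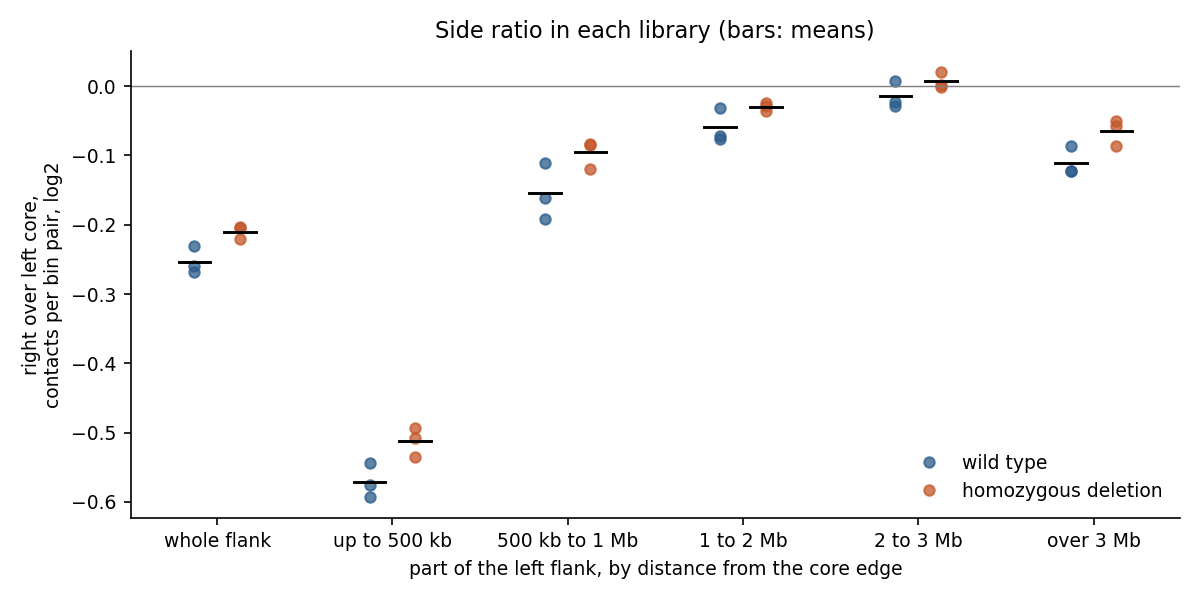
The side ratio (log2 of contacts per bin pair, 22 core bins right of the span over 60 left of it) for the whole left flank and 5 zones of it by distance, with 1 point per library and bars at the means. For the whole flank the homozygous libraries lie between -0.22 and -0.20, above the wild-type libraries at -0.27 to -0.23, and in the 4 zones beyond 500 kb the genotypes overlap.

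The mirror measure on the other flank moved the same way. For the 2420 kb right of the core (chr4:107960001-110380000), the ratio of the left side of the core to the right was -0.91 in wild type and -0.86 in homozygotes, a rise of 0.053 with no overlap (exact permutation p = 0.1). In both flanks the core side farther from the flank thus gained relative to the nearer side, and the gain was no larger on the left (difference of the gains -0.0093, exact permutation p = 0.7). In the same geometry on chromosome 2, where nothing was deleted, the change was 0.0095 with overlapping genotypes (exact permutation p = 0.7). The left flank of chromosome 4 exceeded it by 0.034, which did not pass (exact permutation p = 0.4).

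For single flank bins, the genotype by side interaction (edgeR quasi-likelihood test, both flanks in 1 table, Benjamini-Hochberg adjustment) called 3 of 135 bins (2.22%), all in the right flank and none of the 86 in the left. In the left flank 11 bins had an unadjusted p under 0.05, 9 of them with the right side gaining, and DESeq2 called 0 with 0 unadjusted. The nearest to a call were a Usp24 bin (chr4:106360001-106410000) with 0.16 ± 0.05 (log2, SE; adjusted p = 0.081) and a bin without a coding gene (chr4:106510001-106560000) with 0.11 ± 0.04 (adjusted p = 0.081). In the other direction stood a Dab1 bin (-0.16 ± 0.07, adjusted p = 0.23) and a bin of the stretch without coding genes (-0.12 ± 0.06, adjusted p = 0.23). The count was 3 with column totals in place of TMM scaling, 4 with bins counted from the outer end and 3 without wild-type replicate 2, so it was sensitive to the setting.

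Seen from single core bins, contact with the left flank was highest at the core edge. The first core bin, with Cdcp2, made 1577 contacts with the flank per 1000 contacts with other chromosomes in wild type, and bins of the right side made 529 to 820. Testing the 82 core bins against each flank in 1 table of 164 values (edgeR quasi-likelihood test, Benjamini-Hochberg adjustment) called 0 (0%), with 1 left-flank value under an unadjusted p of 0.05; DESeq2 also called 0, with 1 unadjusted. The bin left of the span, at the end of Dmrtb1, made 2403, 3225 and 2964 contacts without the deletion and 2205, 3244 and 2955 with it (log2 change -0.08 ± 0.07 SE, adjusted p = 0.99). The bin right of it, in 1700047F07Rik, made 2187, 3325 and 2617 and then 2099, 3601 and 2790 (0.0099 ± 0.05 SE, adjusted p = 0.99). The bins at the core's left and right edges changed by -0.02 ± 0.10 and 0.05 ± 0.13.

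Same-numbered libraries of both genotypes varied together, and with the replicate number as a block the test called 16 of the 164 values (9.76%; 3.66% higher and 6.1% lower), 3 of them contacts with the left flank and all 3 lower in homozygotes. These were a bin in Dmrtb1 and 1700047F07Rik (chr4:107680001-107690000; 2358, 4000 and 2905 contacts against 2053, 3818 and 2578; log2 change -0.19, adjusted p = 0.00021), a bin in Lrrc42 and Hspb11 (chr4:107250001-107260000; -0.16, adjusted p = 0.002) and a bin of Glis1 (chr4:107430001-107440000; -0.12, adjusted p = 0.0096). All 3 lie left of the span, and in each same-numbered pair of the Dmrtb1 bin the homozygous library had fewer contacts although libraries 1 to 3 differ in depth.

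The split of core bins between the flanks also differed between genotypes. In the bin right of the span the left flank took 51.8, 52.1 and 50.6% of the contacts with both flanks in wild type and 54.6, 54.6 and 54.1% in homozygotes, without overlap. In the bin left of the span it took 53.1, 56.4 and 53.6% in wild type and then 53.2, 53.9 and 53.8%, with overlap. Across the span the share went from 54.4 ± 1.8 to 51.5 ± 0.8% in wild type, lower in each library, and from 53.6 ± 0.4 to 54.4 ± 0.3% in homozygotes, higher in each library. Wild-type means ranged from 80.3 to 53.9% over the left bins and from 52.7 to 29.9% over the right ones. The share thus falls along the core, and a step at the span beyond that fall was not tested. Right of the span 21 of 22 bins had a higher share in homozygotes, 7 of them without overlap, and left of it 51 of 60 had a lower share, 8 of them without overlap, against 18.3% of all 82 bins without overlap (8.54% higher in homozygotes). The medians were 0.872 and -0.662 percentage points. Neighbouring bins come from the same libraries, so these counts of bins are descriptions. The shorter distance alone predicts changes in these same directions. Its median for the log2 ratio of left-flank to right-flank contacts is 0.017 right of the span and -0.024 left of it. The part of this in the counts was not tested. For the sides as wholes the changes were within the spread, 44.2 ± 1.0 to 45.1 ± 0.3% on the right (exact permutation p = 0.3) and 63.9 ± 0.8 to 63.2 ± 0.8% on the left (exact permutation p = 0.5).

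An interaction of genotype with flank, added after these shares had been seen, called 6 of 82 core bins (7.32%; edgeR quasi-likelihood test, TMM, library as block, Benjamini-Hochberg adjustment). All 6 were right of the span and moved toward the left flank. They are the first 4 bins after the span, in 1700047F07Rik and Gm12907, and 2 bins in Lrp8. The bin next to the span had a log2 change of the balance of 0.22 ± 0.04 (SE, adjusted p = 0.0026), where the shorter distance alone predicts 0.018. The other 5 had 0.14 to 0.18. With the replicate block 3 bins kept an adjusted p under 0.05 (the bin next to the span, 0.011, and 2 Gm12907 bins, 0.040), and the other Gm12907 bin and both Lrp8 bins did not (0.051 to 0.066). Without 1 library 0 to 3 bins were called. Only the bin next to the span was called with DESeq2 or without TMM scaling, its adjusted p ranged from 0.00095 to 0.14 over the alternatives, and it was lost without wild-type replicate 3 (0.16, adjusted p = 0.061) and without the nearest 500 kb of flank (0.15, adjusted p = 0.14). The scaling set the level of all bins: the median over the right side was 0.10 with TMM and 0.059 with column totals, and over the left side 0.012 and -0.03, so the direction of the left side flipped.

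At the bin right of the span the larger change was in the right flank. Per contact with other chromosomes its right-flank contacts went from -0.37 ± 0.03 to -0.65 ± 0.02 (log2, n = 3, no overlap, exact permutation p = 0.1), while its left-flank contacts went from -0.29 ± 0.08 to -0.39 ± 0.02, with overlap (exact permutation p = 0.2). In the bin left of the span both fell without overlap, from -0.44 ± 0.05 to -0.52 ± 0.04 for the right flank and from -0.19 ± 0.07 to -0.31 ± 0.03 for the left (exact permutation p = 0.1 for each). As shares of all contacts of that bin, both overlapped between wild type and homozygotes. The left flank took 13.8 and 13.5% (exact permutation p = 0.9) and the right flank 11.6 and 11.7% (exact permutation p = 0.8). Contacts of that bin with other chromosomes took 15.7 and 16.7%, also with overlap (exact permutation p = 0.3). Over the whole right side the right-flank contacts went from -0.24 ± 0.03 to -0.33 ± 0.03 without overlap, and the left-flank contacts from -0.58 ± 0.07 to -0.61 ± 0.04 with overlap. Contacts with other chromosomes were themselves a larger share of all contacts of the right side in homozygotes (16.6 ± 1.0 to 17.5 ± 1.1%). As a share of all its contacts, the left flank took 11.1 ± 0.2 and 11.4 ± 0.5% on the right side and 12.4 ± 0.4 and 12.7 ± 0.7% in the bin next to the span, with overlap (exact permutation p = 0.4 and 0.7).

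**Figure D5:**
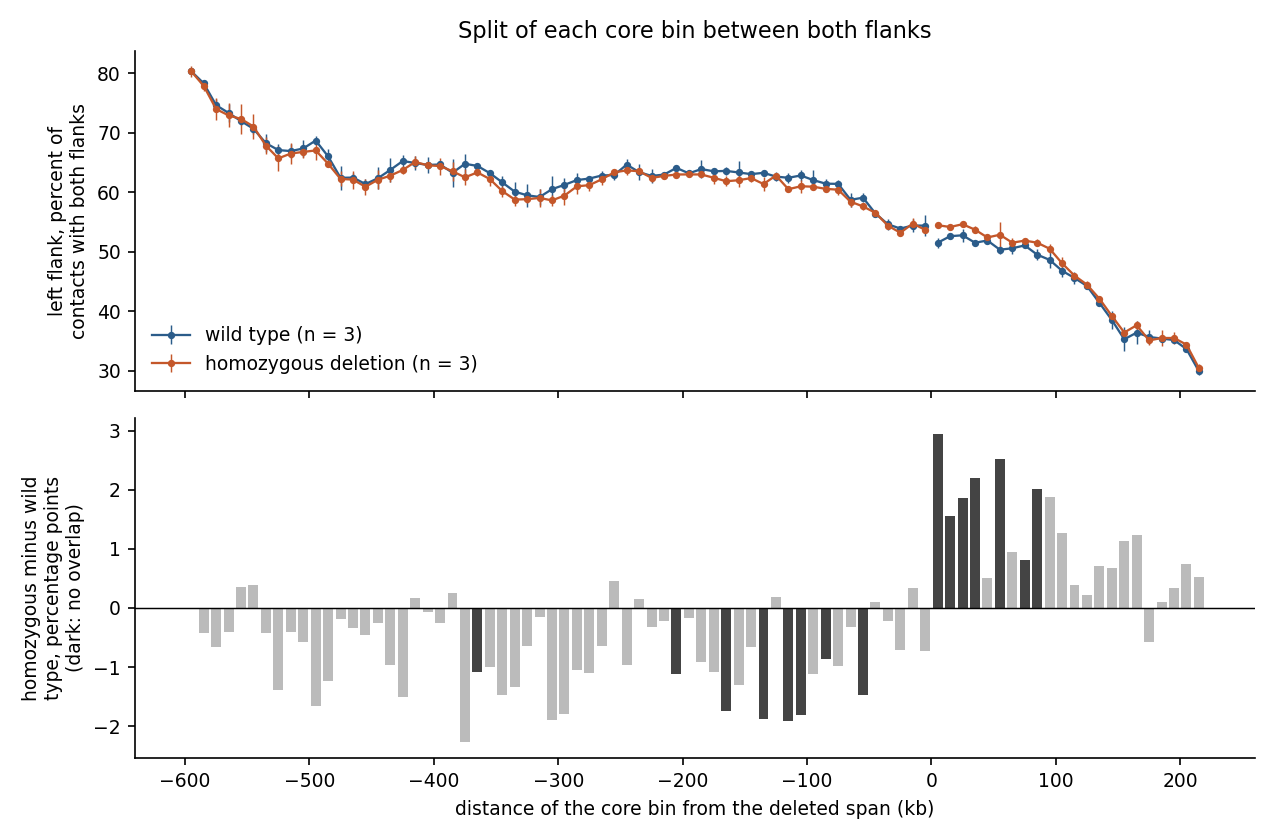
Above, the share of each core bin's contacts with both flanks that went to the left flank (percent, mean ± SD, n = 3 per genotype) against distance from the deleted span (kb; negative is left); below, the difference between genotypes in percentage points, dark where the libraries did not overlap. The wild-type curve falls along the core and goes from 54.4 to 51.5% between the bins beside the span. The homozygous curve goes from 53.6 to 54.4% there, and 21 of 22 bins to the right are higher in homozygotes.

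At the level of single pairs of a 10 kb core bin and a 50 kb flank bin, 10997 pairs of both flanks were tested and 0 passed (0%; edgeR quasi-likelihood test, Benjamini-Hochberg adjustment), among them 7019 of the left flank. Of these 229 had an unadjusted p under 0.05, and DESeq2 called 0 with 33 unadjusted. Genotypes did not overlap in 8.92% of the left-flank pairs and in 9.21% of all. The pair with the smallest p, core bin chr4:107930001-107940000 with the outermost full flank bin in Sgip1, went from 16, 10 and 16 contacts to 4, 9 and 3 in homozygotes (adjusted p = 1.0). At this depth, 124 of 200 simulated pairs changed 2-fold were found and 14 of 200 changed 1.5-fold, so a loop of moderate strength between the core and 1 flank bin could have been missed.

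The fall of contact with distance did not differ between genotypes beyond the spread of the libraries. The slope of log10 contact on log10 distance was -0.81, -0.84 and -0.83 for the left side of the core in wild type and -0.82, -0.86 and -0.80 in homozygotes. For the right side, which starts 640 kb from the flank, it was -1.04, -1.14 and -1.06 and then -1.05, -1.15 and -1.06. The genotypes overlapped on both sides (exact permutation p of 1.0 and 0.8), and the steeper slope of the right side was seen in every library of both genotypes. The left side includes shorter distances, so these slopes cover unlike ranges. Over 500 kb to 4 Mb the wild-type slopes were -0.97, -1.04 and -0.97 on the left and -1.08, -1.20 and -1.12 on the right. In homozygotes they were -0.96, -1.05 and -0.97 on the left and -1.13, -1.23 and -1.13 on the right. Over this range the right slope was steeper in the homozygous library of each same-numbered pair. On the left the direction differed between pairs.

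None of the 66 genes of the flank was listed in the authors' deposited tables of genes regressed on deletion dose, neither among genes near the deletion nor among the 566 others, which stop at a p-value of 0.00998. The number of genes tested in all is not given here, so the share of genes listed is unknown. Absence from these lists therefore does not show that expression in the flank was unchanged.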

How the data were processed

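Contact counts between pairs of 10 kb bins were deposited by the authors for 6 capture Hi-C libraries, as whole-number counts with no normalization, in mm10 coordinates per the submitters' processing notes; the aligner, the filters and the binning are not given in the sources used here. Per the labels' protocols, frozen testis was processed with an Arima kit and captured with Agilent SureSelect probes. The authors' deposited Matrix eQTL tables give a score (t statistic, slope) and a p-value with FDR per gene, and were used only to look up flank genes. Totals were 5669898 to 7794641 contacts per library. Counts were summed over 50 kb flank bins. Expected counts came from each library's decay over 34 classes of distance. One value per library was compared by exact permutation or sign-flip tests, and tables of bins by edgeR 4.0.16 (R 4.3.3, TMM, quasi-likelihood, mean count at least 20, pairs at least 5), with DESeq2 1.42.0 as an alternative; Benjamini-Hochberg adjustment covered the whole table. The tests were tested on simulated data. Deviations of same-numbered libraries from their genotype mean correlated at 0.56, 0.73 and 0.23 over 135 flank bins. The replicate number was therefore used as a block in alternative fits and as the pairing in sign-flip tests between genotypes. The main genotype tests did not use it. Wild-type library 3 correlated better with homozygous library 1 (0.37), and the third pair reached only 0.048 over single bin pairs. The bins, genes and lists were chosen with earlier results of these data known. Named bins were up to 5 calls per direction with the smallest adjusted p, or else the 2 with the smallest p, the 5 highest and 3 lowest wild-type bins, and bins at the core edges and beside the span; named genes overlap these or come from a list of 10. Gene positions are those of RefSeq GRCm38.p6. A few genes and their bins are not reported here.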

Additional observations from a re-analysis of the deposited data

Results flagged for a closer look

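In 6 core bins right of the span the balance between the flanks differed between genotypes in a test of that difference that was added after the shares had been seen (edgeR quasi-likelihood test, Benjamini-Hochberg adjustment). The log2 changes toward the left flank were 0.22 in the bin next to the span (adjusted p = 0.0026), 0.14, 0.16 and 0.18 in the next 3 bins (adjusted p of 0.021 to 0.029), and 0.16 and 0.16 in the 2 bins of Lrp8 (adjusted p = 0.021 and 0.024). Right-flank contacts of the bin next to the span moved with it, as given above, and their part in the result was not tested. With the replicate block 3 of the 6 were called, and without 1 library 0 to 3.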

How the results depend on the processing

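The whole-flank side ratio kept its sign under every alternative run, from 0.021 (right core moved 30 kb closer in homozygotes) upward; its nearest zone fell to 0.030 at the missing length. The distance-matched difference had no stable sign: 0.037 with the 22 nearest left bins, 0.043 without scaling, -0.0025, -0.0045 and -0.010 with the right core moved 20 kb, the missing length and 30 kb closer. The slope differences also turned, to -0.0033 on the left (500 kb to 4 Mb) and 0.015 on the right (without the nearest 500 kb); leaving out 1 library gave -0.011 to 0.019 and -0.036 to 0.025, and -0.013 to 0.041 for chromosome 2 and -0.023 to 0.0064 for left minus right flank. The cause was not tested.

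With the replicate block the core-bin test called 3 bins, and 7 with the left flank fitted alone. The side interaction called 3 bins with column totals, 1 with 100 kb bins, 4 counted from the outer end and 0 to 3 without 1 library. The flank balance called 3 with the replicate block, 1 with column totals, 1 with DESeq2 size factors, 1 with DESeq2, 1 without the nearest 500 kb and 0 to 3 without 1 library. Right against left called 26 and 23 bins (wild type and homozygotes) with DESeq2, 25 and 15 without the distance offset, 16 and 13 with the decay of chromosome 2, 27 and 28 of fewer, 100 kb bins, and 25 to 40 and 31 to 43 without 1 library.

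Single bins turned as follows. Without the offset the wild-type values were -1.15 (first flank bin), -0.062 (Ttc4, Mroh7) and -0.091 (Fam151a), and the homozygous ones -0.041 (Lexm), -0.072 (Ttc4, Mroh7), -0.11 (Fam151a) and 0.0058 (Dab1). Without an offset the longer distance of the right side enters these values. With the decay of chromosome 2 the C8b to Plpp3 segment was at -0.031 (-0.035 in homozygotes). With the 22 nearest left bins the wild-type values were 0.19 (Slc35d1), 0.060 (Oma1) and 0.25 (Wdr78), and the homozygous ones 0.21 and 0.024 for the first pair. Leaving out 1 library gave -0.12 to 0.059, -0.014 to 0.033 and -0.063 to 0.15 for the core bins at the left edge, right of the span and at the right edge. Changes of these sizes could have been missed: in simulated counts 124 of 200 pairs changed 2-fold, 4 of 20 flank bins changed 1.1-fold and 0 of 20 core bins changed 1.1-fold were recovered.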
